A study of Homo sapiens with 18 samples.

Results

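The E2F transcription factors and the retinoblastoma (RB) family of pocket proteins were followed through 18 Affymetrix Gene arrays of NCI-H1299 cells, a non-small cell lung carcinoma line that lacks p53. The family was taken as the 10 genes E2F1, E2F2, E2F3, E2F4, E2F5, E2F7, E2F8, RB1, RBL1 and RBL2, chosen by name. All 10 were measured, each by exactly 1 probe set, out of 18417 genes tested. The arrays fall into 6 groups of 3. The first set held cells that received ΔNp53:WTp53, WTp53 or an empty vector, each in experiments 0, 4 and 5. The second set held cells that received tethered WTp53, WTp53 or an empty vector, each in experiments d, e and f. Every plasmid was a GFP vector (pIRES-2EGFP), so the vector cells carried the green fluorescent protein as well. Cells were transfected transiently, sorted for green fluorescence and harvested after 40 hours, so the readings come from 1 line under plasmid-driven expression, and the labels give no protein level. The transfection field of the tethered arrays names ΔNp53:WTp53, whereas their titles and descriptions name tethered WTp53; the titles were followed. Experiments 0, 4 and 5 are described as independent transfections. Experiments d, e and f are called controls with no statement of independence, so p-values in the second set measure only the spread between those arrays, which may be technical.

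E2F factors bind a TTTSSCGC-type element, mostly as dimers with a DP protein, at genes for S phase entry and DNA replication. E2F1, E2F2 and E2F3 are known as activators, E2F4 and E2F5 act largely as repressors with the pocket proteins, and E2F7 and E2F8 are atypical repressors that bind DNA without a DP partner and without pocket proteins. RB1, RBL1 (p107) and RBL2 (p130) hold E2F factors in check until cyclin-dependent kinases phosphorylate them. CDKN1A (p21), a target of p53, inhibits those kinases, and RBL1 or RBL2 with E2F4 or E2F5 and the MuvB core form the DREAM repressor complex.

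Values are log2 intensities, and a difference of 1 is a 2-fold change. The sets were normalized separately: array medians spanned 4.89 to 4.97 in one and 7.01 to 7.07 in the other. Levels are therefore set side by side within a set, and never for different probe sets. Across genes, the standard deviation within a group had a median of 0.151 for ΔNp53:WTp53, 0.109 for WTp53 and 0.104 for the vector in the first set. It was 0.069 for tethered WTp53, 0.049 for WTp53 and 0.056 for the vector in the second set. CDKN1A was read as a check of the p53 against the vector labels, and it does not settle the conflicting labels of the tethered arrays. It rose by 3.69 ± 0.26 with ΔNp53:WTp53 and by 4.62 ± 0.26 with WTp53 over the vector in the first set. In the second it rose by 3.22 ± 0.06 with tethered WTp53 and 3.13 ± 0.06 with WTp53 (log2 difference ± SE, n = 3 each). ΔNp53:WTp53 differed from WTp53 by −0.93 ± 0.26, lower in 3 of 3 experiments, and did not pass (limma unadjusted p = 0.00551, adjusted p = 0.1). The ΔNp53:WTp53 array of experiment 0 stood apart from the other 2 of its group for several genes below, and results that rest on it are given with and without experiment 0. Of 7 leukocyte markers 0 were called for ΔNp53:WTp53 and 2 rose for WTp53 over the vector in the first set, with a list mean of 4.67 to 4.72, 4.86 to 4.98 and 4.61 to 4.84 in ΔNp53:WTp53, WTp53 and vector arrays. Of 10 fibroblast and endothelial markers 0 were called in each of the 6 comparisons by limma (0 to 2 at an unadjusted p under 0.05). A list of 10 lung epithelium and carcinoma markers included VIM. Of these 2 rose for ΔNp53:WTp53 and 1 rose for WTp53 over the vector in the first set. In the second set 5 rose for tethered WTp53 and 3 rose for WTp53, and 0 fell in either set. In the second set 1 leukocyte marker rose and 1 fell for tethered WTp53, and 2 rose and 1 fell for WTp53. The list mean of the lung markers was 5.93 to 6.12 in ΔNp53:WTp53, 6.0 to 6.02 in WTp53 and 5.67 to 5.86 in vector arrays of the first set. In the second set it was 8.03 to 8.07 in tethered WTp53, 7.93 to 8.0 in WTp53 and 7.86 to 7.89 in vector arrays; the part of these markers in the results was not tested.

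Most of the family differed from the vector with each p53 construct, and E2F7 was the E2F gene that rose. E2F7 rose in all 4 comparisons with the vector, and E2F2, E2F5, E2F8 and RBL1 fell in all 4. With the spread shared by all 18 arrays E2F2, E2F5 and RBL1 did not pass for WTp53 in the second set (limma adjusted p = 0.135, 0.251 and 0.382). RB1 and RBL2, which rose there, did not pass either (limma adjusted p = 0.0932 and 0.0535). The 2 comparisons of a set share their vector arrays, and the share of all genes called alike in all 4 was not counted. With ΔNp53:WTp53 1 of 10 members rose and 6 fell (limma adjusted p under 0.05, against 15.7% and 20.3% of all genes, 36.1% in either direction). The 2 groups did not overlap for 7 of the 10, against 45.6% of all genes. With WTp53 in the first set 2 rose and 4 fell, against 15.2% and 16.6% of all genes (31.8% in either direction), and 7 did not overlap, against 48.8%. With tethered WTp53 2 rose and 5 fell, against 21.6% and 26.2% (47.8% in either direction), and 7 did not overlap, against 52.3%. With WTp53 in the second set 3 rose and 4 fell, against 17.9% and 18.9% (36.8% in either direction), and 7 did not overlap, against 47.2%. The median member changed by −0.58, −0.31, −0.24 and 0.01 in these 4 comparisons, while the median of all genes changed by 0.01, 0.02, 0.00 and −0.02. In bulk RNA a lower value can come from fewer cells in a state that expresses the gene or from less RNA per cell, which cannot be told apart here.

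**Figure D1:**
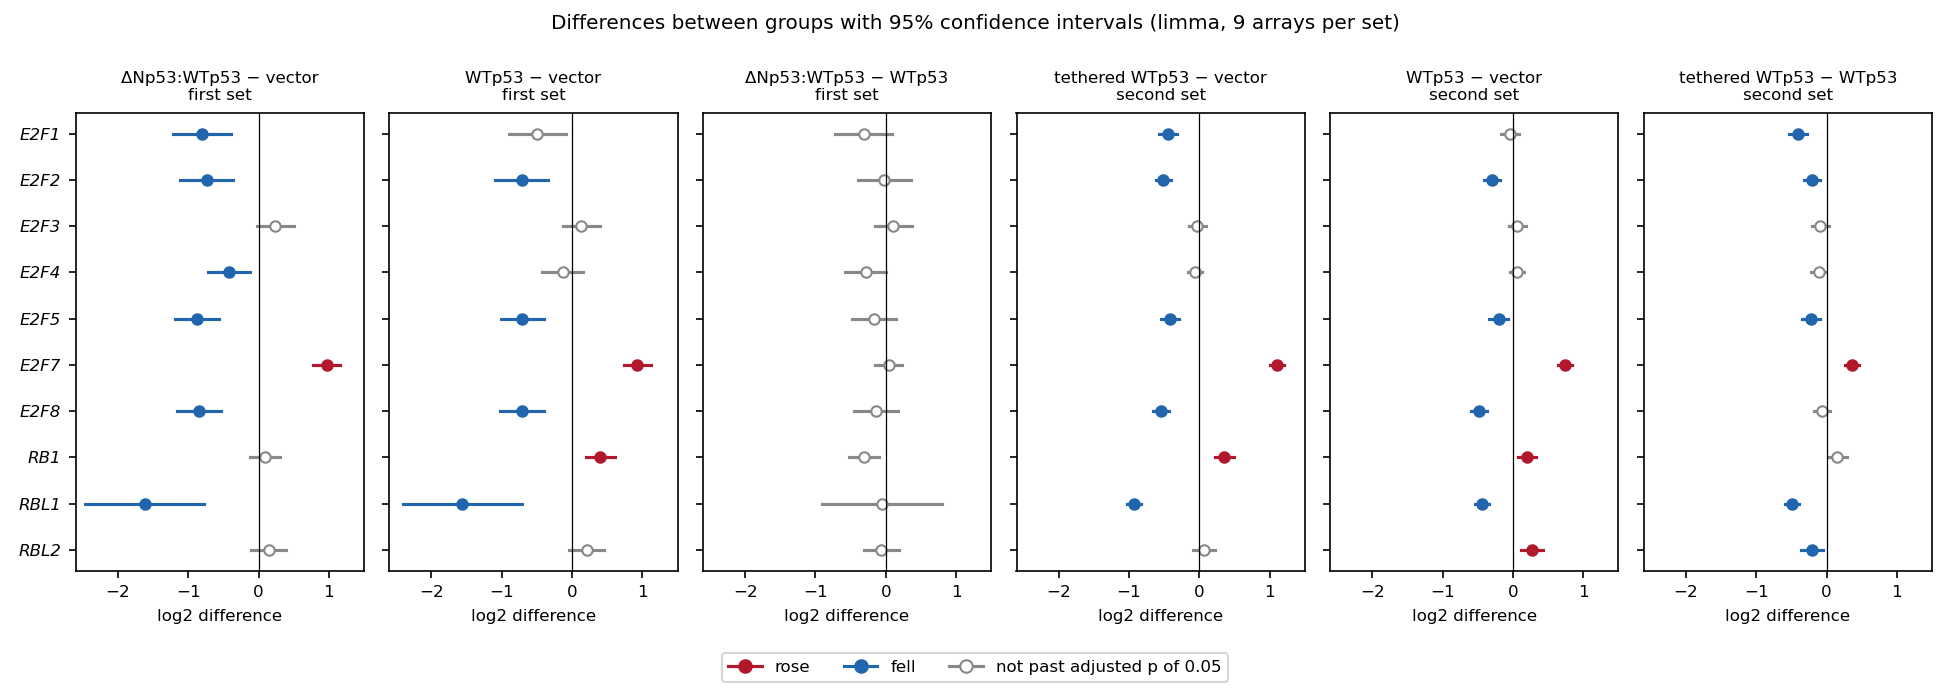
Log2 differences of the 10 members (dots) with 95% confidence intervals (lines) from limma, for the 6 comparisons; red rose, blue fell, open grey did not pass. E2F7 lies right of 0 in all 4 comparisons with the vector, by 0.97, 0.93, 1.10 and 0.74, and RBL1 lies left of 0, at −1.62, −1.56, −0.93 and −0.44.

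The promoters of 3 members that fell and hold a match are shown beside that of E2F7, which rose and holds none. These 4 were picked by direction and match together, so their contrast is not a result. E2F genes are known to be regulated through E2F elements of their own. The 250 bases before the annotated start are printed 5′ to 3′ from RefSeq (GRCh38.p14), with matches to the element in capitals. The letters searched, on both strands, were TTTCCCGC, TTTGGCGC, TTTGCCGC and TTTCGCGC.
E2F1 promoter, chr20:33686386-33686635, minus strand: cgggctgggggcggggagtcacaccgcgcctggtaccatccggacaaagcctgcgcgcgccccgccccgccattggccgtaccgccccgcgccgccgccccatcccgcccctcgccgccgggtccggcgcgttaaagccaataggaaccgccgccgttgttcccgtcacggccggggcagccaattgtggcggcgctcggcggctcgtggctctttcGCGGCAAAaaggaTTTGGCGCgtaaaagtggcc
E2F2 promoter, chr1:23531234-23531483, minus strand: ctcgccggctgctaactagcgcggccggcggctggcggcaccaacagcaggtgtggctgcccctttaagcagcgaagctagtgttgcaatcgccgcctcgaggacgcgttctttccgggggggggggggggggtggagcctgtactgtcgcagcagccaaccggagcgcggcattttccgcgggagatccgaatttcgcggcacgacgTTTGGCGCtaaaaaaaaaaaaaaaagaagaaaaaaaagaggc
RBL1 promoter, chr20:37095998-37096247, minus strand: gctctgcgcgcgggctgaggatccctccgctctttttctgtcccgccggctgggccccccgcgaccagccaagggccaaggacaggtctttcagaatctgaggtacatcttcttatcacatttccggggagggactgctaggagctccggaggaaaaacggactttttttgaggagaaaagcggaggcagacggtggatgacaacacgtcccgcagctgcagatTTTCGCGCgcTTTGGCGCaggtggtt
E2F7 promoter, chr12:77065570-77065819, minus strand: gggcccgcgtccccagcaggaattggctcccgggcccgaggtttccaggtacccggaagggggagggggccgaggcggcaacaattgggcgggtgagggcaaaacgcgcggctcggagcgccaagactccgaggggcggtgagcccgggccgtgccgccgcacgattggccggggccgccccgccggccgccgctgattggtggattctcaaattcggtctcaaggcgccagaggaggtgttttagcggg
E2F1 held 2 matches, the nearest ending 13 bases before the start, RBL1 held 2, the nearest ending 9 bases before it, and E2F2 held 1, ending 35 bases before it. E2F3, which did not pass in any of the 6 comparisons, held 1 in the first of its 2 windows. None of these letters were held by E2F4, which fell with ΔNp53:WTp53, or by E2F7 and RBL2. Of the 8 members searched, a match was found in 4, in 4 of their 10 windows, against 2.79% of 35116 windows of the same length. E2F5 and E2F8, which fell in all 4 comparisons with the vector, were not searched. The window listed for RB1 lies inside the gene, so it does not describe the main start, but it is counted among the 10. The letters TTTGAA, the core of the CHR element that the MuvB complex binds, were in 1 of the 10 windows (of E2F3), against 13.3% of all windows. A match is a description of the sequence and not a bound site.

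Among the activators E2F1 fell with ΔNp53:WTp53 and with tethered WTp53, and with WTp53 it did not pass in either set. Its probe set (8065710) read 6.56, 5.85 and 5.76 in ΔNp53:WTp53 cells of experiments 0, 4 and 5, 6.48, 6.42 and 6.21 in WTp53 cells, and 6.91, 6.90 and 6.79 in vector cells. Both p53 groups lay below the vector with no overlap, while the ΔNp53:WTp53 array of experiment 0 lay above every WTp53 array. The difference from the vector was −0.81 ± 0.18 for ΔNp53:WTp53, 1.75-fold lower (limma adjusted p = 0.00655), and −0.49 ± 0.18 for WTp53, which did not pass (limma adjusted p = 0.0669). Without experiment 0 the difference for ΔNp53:WTp53 was −1.04 (limma adjusted p = 9.67e-05). WTp53 passed with the experiment as a replicate block (limma adjusted p = 0.024) and without experiment 0 (−0.53, limma adjusted p = 0.00448). It also passed with only the 6 arrays compared (limma adjusted p = 0.00376), with the spread shared by all arrays (limma adjusted p = 0.0104) and with median centring (limma adjusted p = 0.0397). On the arrays of experiments d, e and f E2F1 read 9.05, 8.93 and 9.18 in tethered WTp53 cells, 9.45, 9.47 and 9.46 in WTp53 cells, and 9.51, 9.47 and 9.51 in vector cells. The tethered arrays were the 3 lowest, and the WTp53 arrays overlapped the vector arrays. E2F1 fell by 0.44 with tethered WTp53 against the vector (limma adjusted p = 6.36e-05), and WTp53 differed by −0.04 ± 0.06 (95% interval −0.16 to 0.09).

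E2F2, whose protein shares its activating role with E2F1, fell with every p53 construct. It read 5.66, 5.01 and 5.48 in ΔNp53:WTp53 cells, 5.58, 5.50 and 5.14 in WTp53 cells, and 6.21, 6.01 and 6.16 in vector cells. Neither p53 group overlapped the vector, and the p53 groups overlapped each other. E2F2 fell by 0.74 with ΔNp53:WTp53 (limma adjusted p = 0.00707) and by 0.72 with WTp53 (limma adjusted p = 0.00911). The second set read 6.91, 6.98 and 6.89 in tethered WTp53 cells, 7.18, 7.15 and 7.07 in WTp53 cells, and 7.45, 7.36 and 7.50 in vector cells, so the 3 groups were apart in that order. It fell by 0.51 with tethered WTp53 and by 0.30 with WTp53 (limma adjusted p = 8.27e-06 and 6.83e-04).

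E2F3, the other activator, did not pass in any of the 6 comparisons. It read 7.35, 7.59 and 7.32 in ΔNp53:WTp53 cells, 7.32, 7.29 and 7.32 in WTp53 cells, and 7.07, 7.04 and 7.43 in vector cells, where the array of experiment 5 lay far above the other 2. The difference for ΔNp53:WTp53 was 0.24 (95% interval −0.03 to 0.50), and without that vector array it was 0.36 and passed (limma adjusted p = 0.0322), as it did with the spread shared by all 18 arrays (limma adjusted p = 0.0478). In the second set its arrays ran from 8.47 to 8.57 with tethered WTp53, from 8.57 to 8.68 with WTp53 and from 8.45 to 8.62 with the vector, all overlapping.

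The E2F genes whose proteins act as repressors with pocket proteins differed from each other. E2F5 fell with every construct, and E2F4 passed only for ΔNp53:WTp53 in the first set. E2F5 read 7.67, 7.15 and 7.37 in ΔNp53:WTp53 cells, 7.75, 7.58 and 7.36 in WTp53 cells, and 8.28, 8.29 and 8.24 in vector cells. The vector arrays lay within 0.05 of each other and above all 6 p53 arrays. E2F5 fell by 0.87 with ΔNp53:WTp53, 1.83-fold lower (limma adjusted p = 0.00101), and by 0.71 with WTp53 (limma adjusted p = 0.00342). The second set read 9.93, 9.93 and 9.76 in tethered WTp53 cells, 10.14, 10.03 and 10.10 in WTp53 cells, and 10.36, 10.22 and 10.30 in vector cells, again with no overlap between the 3 groups. It fell by 0.42 with tethered WTp53 (limma adjusted p = 1.17e-04) and by 0.20 with WTp53 (limma adjusted p = 0.0191), and the second of these did not pass without vector replicate d, vector replicate f or WTp53 replicate e (limma adjusted p = 0.0783, 0.0536 and 0.0791).

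E2F4 read 8.21, 7.85 and 7.71 in ΔNp53:WTp53 cells, 8.27, 8.29 and 8.06 in WTp53 cells, and 8.40, 8.25 and 8.38 in vector cells. The ΔNp53:WTp53 arrays lay below the vector arrays, that of experiment 0 by a small margin, and the WTp53 arrays overlapped them. E2F4 fell by 0.42 with ΔNp53:WTp53 (limma adjusted p = 0.03), a call lost without any 1 of 4 arrays (limma adjusted p = 0.0843 to 0.112). Without experiment 0 it fell by 0.53 (limma adjusted p = 0.00514). WTp53 differed from the vector by −0.13 ± 0.13. Its second-set differences from the vector were −0.06 ± 0.05 with tethered WTp53 and 0.05 ± 0.05 with WTp53, and neither passed.

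**Figure D2:**
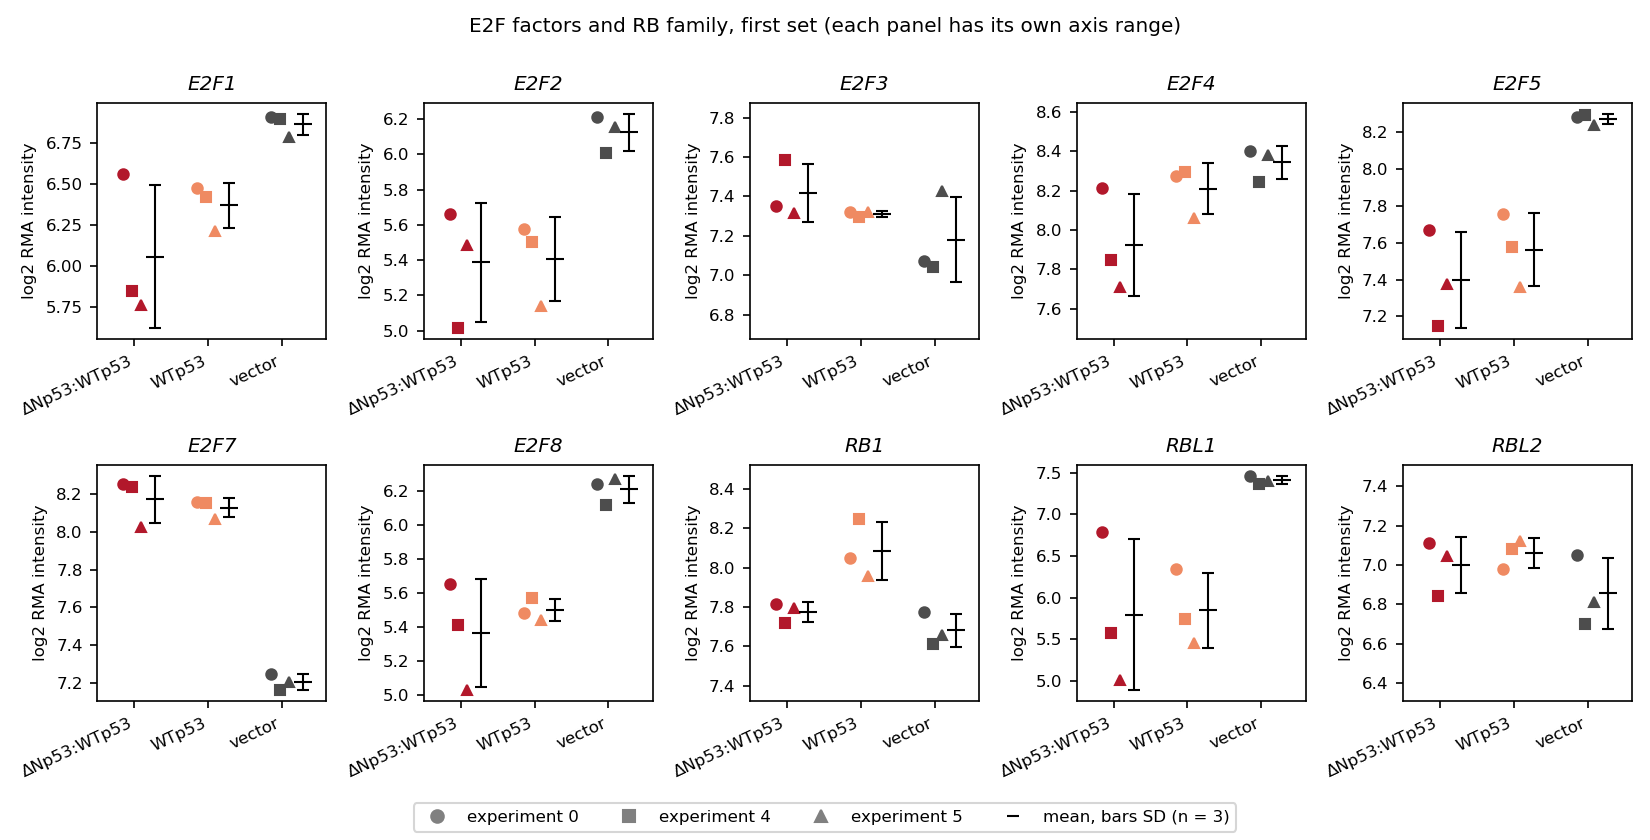
Log2 RMA intensity of each member on the 9 arrays of the first set (symbols mark experiments 0, 4 and 5) with the group mean and SD; every panel has its own axis range. RBL1 reads 5.01 to 6.79 with ΔNp53:WTp53, 5.45 to 6.34 with WTp53 and 7.36 to 7.46 with the vector, and the circle of experiment 0 is the highest of both p53 groups.

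The atypical repressors moved in opposite directions: E2F7 rose and E2F8 fell with each p53 construct. E2F7 read 8.25, 8.23 and 8.03 in ΔNp53:WTp53 cells, 8.16, 8.15 and 8.07 in WTp53 cells, and 7.25, 7.16 and 7.20 in vector cells. All 6 p53 arrays lay above all 3 vector arrays, and the p53 groups overlapped. E2F7 rose by 0.97 ± 0.09 with ΔNp53:WTp53, 1.96-fold (limma adjusted p = 4.82e-05), and by 0.93 ± 0.09 with WTp53, 1.90-fold (limma adjusted p = 6.91e-05). The second set read 10.33, 10.39 and 10.27 in tethered WTp53 cells, 9.94, 9.98 and 9.97 in WTp53 cells, and 9.26, 9.19 and 9.23 in vector cells, with the 3 groups apart. It rose by 1.10 ± 0.04 with tethered WTp53, 2.15-fold (limma adjusted p = 9.26e-09), and by 0.74 ± 0.04 with WTp53, 1.67-fold (limma adjusted p = 3.91e-07). It passed under every alternative setting tried for these 4 comparisons.

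E2F8 read 5.65, 5.41 and 5.03 in ΔNp53:WTp53 cells, 5.48, 5.57 and 5.44 in WTp53 cells, and 6.24, 6.12 and 6.27 in vector cells. The vector arrays were the 3 highest. E2F8 fell by 0.85 with ΔNp53:WTp53 (limma adjusted p = 0.00126) and by 0.71 with WTp53 (limma adjusted p = 0.0035). In the first set E2F8 and E2F2 were dim, with a mean below that of the median gene. The alternative that left out dim genes dropped both there, so it did not test their falls. In the second set it read 8.16, 8.16 and 8.26 in tethered WTp53 cells, 8.29, 8.31 and 8.18 in WTp53 cells, and 8.73, 8.69 and 8.79 in vector cells. The vector arrays were again highest, and the p53 groups overlapped. It fell by 0.54 with tethered WTp53 and by 0.48 with WTp53 (limma adjusted p = 5.30e-06 and 2.83e-05).

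The pocket protein genes also split. RBL1, which encodes the pocket protein p107, showed the largest fall of the 10 members with each of ΔNp53:WTp53, WTp53 of the first set and tethered WTp53. It read 6.79, 5.57 and 5.01 in ΔNp53:WTp53 cells, 6.34, 5.74 and 5.45 in WTp53 cells, and 7.46, 7.36 and 7.40 in vector cells. Neither p53 group overlapped the vector, and experiment 0 was the highest in both. RBL1 fell by 1.62 with ΔNp53:WTp53, 3.07-fold lower (limma adjusted p = 0.00766), and by 1.56 with WTp53, 2.96-fold lower (limma adjusted p = 0.0103). Within experiments 0, 4 and 5 the difference was −0.67, −1.79 and −2.39 for ΔNp53:WTp53, and without experiment 0 the fit gave −2.09 ± 0.18 for ΔNp53:WTp53 and −1.79 ± 0.18 for WTp53. RBL1 in the second set read 7.59, 7.64 and 7.65 in tethered WTp53 cells, 8.05, 8.18 and 8.12 in WTp53 cells, and 8.58, 8.54 and 8.54 in vector cells. The 3 groups were apart, and RBL1 fell by 0.93 with tethered WTp53, 1.90-fold lower (limma adjusted p = 3.51e-08), and by 0.44 with WTp53, 1.35-fold lower (limma adjusted p = 1.97e-05).

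RB1, the retinoblastoma tumour suppressor, rose in 3 of the 4 comparisons with the vector and not with ΔNp53:WTp53. It read 7.82, 7.72 and 7.79 in ΔNp53:WTp53 cells, 8.05, 8.25 and 7.96 in WTp53 cells, and 7.77, 7.61 and 7.66 in vector cells. The WTp53 arrays were the 3 highest, and the ΔNp53:WTp53 arrays overlapped the vector arrays. RB1 rose by 0.40 ± 0.10 with WTp53 (limma adjusted p = 0.00908), and the difference for ΔNp53:WTp53 was 0.09 (95% interval −0.12 to 0.31). In the second set it read 10.68, 10.79 and 10.52 in tethered WTp53 cells, 10.50, 10.53 and 10.50 in WTp53 cells, and 10.29, 10.31 and 10.33 in vector cells, with both p53 groups above the vector. It rose by 0.35 ± 0.06 with tethered WTp53 (limma adjusted p = 5.11e-04) and by 0.20 ± 0.06 with WTp53 (limma adjusted p = 0.0237); the second did not pass without vector replicate d or e or any 1 WTp53 array (limma adjusted p = 0.0529 to 0.0738). RBL2, the gene of p130, the pocket protein prominent in resting cells, rose with WTp53 in the second set, by 0.28 ± 0.07 (limma adjusted p = 0.00969). With the spread shared by all 18 arrays it did not pass (limma adjusted p = 0.0535). With WTp53 in the first set the difference was 0.21 ± 0.11, and without experiment 0 it rose by 0.35 (limma adjusted p = 0.029); the WTp53 effects of the 2 sets differed by −0.07 ± 0.15, which did not pass. It read 8.32, 8.32 and 8.09 in tethered WTp53 cells, 8.34, 8.55 and 8.47 in WTp53 cells, and 8.20, 8.15 and 8.18 in vector cells. In the first set its arrays ran from 6.84 to 7.11 with ΔNp53:WTp53, from 6.98 to 7.12 with WTp53 and from 6.70 to 7.05 with the vector, and all groups overlapped.

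**Figure D3:**
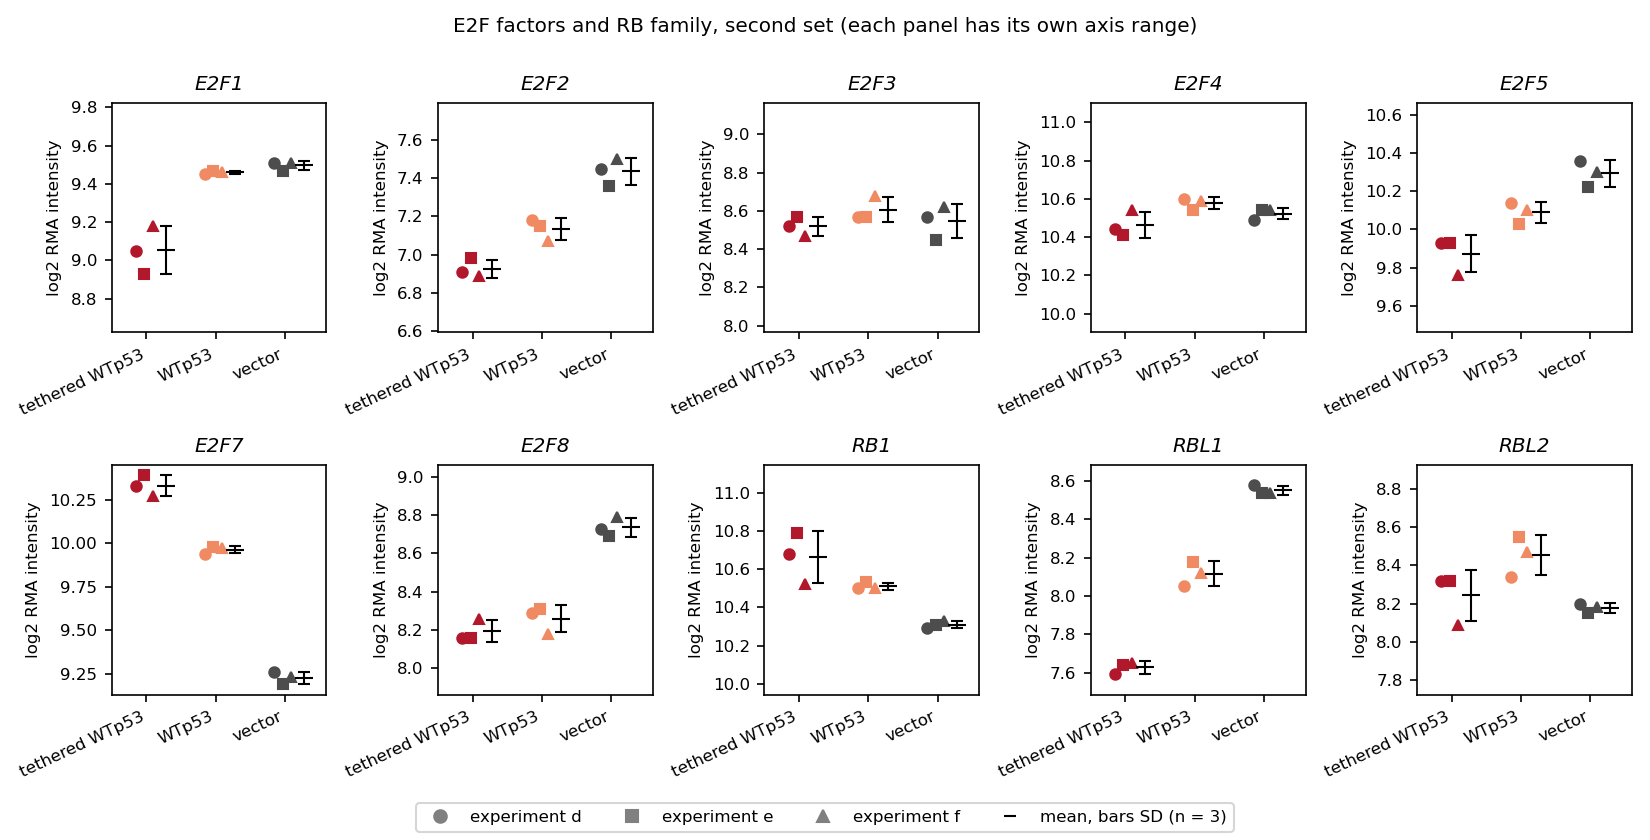
Log2 RMA intensity of each member on the 9 arrays of the second set (symbols mark experiments d, e and f) with the group mean and SD; every panel has its own axis range. E2F7 reads 10.27 to 10.39 with tethered WTp53, 9.94 to 9.98 with WTp53 and 9.19 to 9.26 with the vector, and E2F2, E2F5 and RBL1 stand in the opposite order.

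ΔNp53:WTp53 against WTp53 asks what the combination changes beyond WTp53. By limma 0 of 10 members passed (1 at an unadjusted p under 0.05), against 2.44% of all genes (449 genes, and 806 with the experiment as a replicate block). For RB1 alone the 2 groups did not overlap, against 20.6% of all genes; it differed by −0.31 ± 0.10 (unadjusted p = 0.00906, limma adjusted p = 0.124), lower in 3 of 3 experiments, and it passed with the spread shared by all 18 arrays (limma adjusted p = 0.0152). The interval was narrow for E2F7 (0.04, 95% interval −0.15 to 0.24) and wide for RBL1 (−0.05, 95% interval −0.90 to 0.79). The spread of the ΔNp53:WTp53 arrays bears on this comparison. Within experiments 0, 4 and 5 E2F1 differed by 0.08, −0.57 and −0.45, and without experiment 0 it fell by 0.51 (limma adjusted p = 0.0181), the 1 member of 10 that passed, against 13.4% of all genes in that fit. Without only the ΔNp53:WTp53 array of experiment 0 E2F1 and E2F4 fell, by 0.57 and 0.43 (limma adjusted p = 0.00719 and 0.0268).

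Tethered WTp53 against WTp53, which asks whether tethering alone alters the response, gave 1 rise and 5 falls among the 10 members, against 14.9% and 17.5% of all genes (32.4% in either direction). E2F7 rose by 0.37 ± 0.04 (limma adjusted p = 1.85e-04), beyond the rise that WTp53 gave over the vector. RBL1, E2F1, E2F5 and E2F2 fell by 0.49, 0.41, 0.22 and 0.21 (limma adjusted p = 4.31e-05, 4.75e-04, 0.0171 and 0.0102). RBL2 fell by 0.21 (limma adjusted p = 0.0431), a call lost without tethered WTp53 replicate f, WTp53 replicate e or WTp53 replicate f (limma adjusted p = 0.125, 0.151 and 0.114). E2F5 lost its call without WTp53 replicate d or f (limma adjusted p = 0.0605 and 0.054). The groups did not overlap for 6 of 10 members, against 42.6% of all genes. E2F8 differed by −0.07 (95% interval −0.18 to 0.05) and RB1 by 0.15 (95% interval 0.02 to 0.29), and neither passed. RB1 passed after quantile normalization again, with dim genes left out and without tethered WTp53 replicate f (limma adjusted p = 0.02, 0.0406 and 0.0051). E2F4 differed by −0.11 ± 0.05 and passed under 4 alternatives, among them without tethered WTp53 replicate f (limma adjusted p = 0.0224). With the spread shared by all 18 arrays E2F1, E2F2, E2F5, RBL1 and RBL2 did not pass (limma adjusted p = 0.0878 to 0.372).

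Both constructs were then compared by the difference of their effects, each formed within its own set. Of the 10 members 0 passed by limma (RB1 and E2F7 at an unadjusted p under 0.05), against 2.51% of all genes. RB1 came nearest: its difference from WTp53 was −0.31 with ΔNp53:WTp53 and 0.15 with tethered WTp53, a difference of effects of −0.46 ± 0.13 (unadjusted p = 0.00202, limma adjusted p = 0.0632), and it passed without the weights given to each set (limma adjusted p = 0.0355). For E2F7 the effects were 0.04 and 0.37, a difference of −0.32 ± 0.10 (limma adjusted p = 0.0876). The WTp53 effect against the vector was larger in the first set than in the second for E2F5 and RBL1, the 2 members that passed, against 13.2% of all genes. RBL1 fell by 1.56 in the first set and by 0.44 in the second, a difference of −1.13 ± 0.33 (limma adjusted p = 0.03, and 0.0869 without the weights), and E2F5 by 0.71 and 0.20, a difference of −0.50 ± 0.15 (limma adjusted p = 0.0354). CDKN1A also had the larger change in the first set (4.62 and 3.13), and the part of the separate normalization was not tested.

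The downstream genes were followed with a list of 45 E2F targets for S phase entry and replication, of which 42 were measured. With ΔNp53:WTp53 34 fell and 4 rose, with a median of −0.85, and with WTp53 in the first set 13 fell and 3 rose, with a median of −0.45. The 16 targets called with WTp53 in the first set became 32 without experiment 0, where 38.2% of all genes were called (31.8% with it). They became 7 to 9 without vector replicate 0, 4 or 5 or WTp53 replicate 4 or 5. Leaving out any 1 array of this comparison gave 4346 to 5437 called genes of 18417. With tethered WTp53 36 fell and 4 rose (median −0.56), and with WTp53 in the second set 22 fell and 5 rose (median −0.16). The shares of all genes and their medians given above are the background of the counts with all arrays. For calls in all 4 comparisons the share of all genes was not counted. In all 4 comparisons 12 of the 42 fell, among them CCNE2, a cyclin E gene, CDC6, which loads the replicative helicase, the primase gene PRIM1 and FBXO5 (EMI1), which restrains the anaphase-promoting complex. In all 4 comparisons 3 rose: CCNE1, the other cyclin E gene, PCNA, the sliding clamp, and GMNN, which encodes geminin and was named after its values were seen. FBXO5 fell by 2.68 with WTp53 in the first set and fell by 1.77 with tethered WTp53 (limma adjusted p = 0.00205 and 4.94e-08). PCNA rose by 0.75 ± 0.12 with WTp53 in the first set and by 0.81 ± 0.05 in the second, and CCNE1 by 1.01 ± 0.11 and 0.88 ± 0.06 (limma adjusted p = 0.00106, 7.19e-07, 1.12e-04 and 1.33e-06).

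Against WTp53 the tethered construct lowered 36 of the 42 targets and raised 1, with a median of −0.33, and these included the helicase genes MCM10, MCM3 and MCM6, by 0.64, 0.59 and 0.47. Their median was −0.33, −0.31 and −0.30 in experiments d, e and f. For ΔNp53:WTp53 against WTp53 0 of the 42 passed by limma (16 at an unadjusted p under 0.05) with a median of −0.40, and 2 passed with the experiment as a replicate block. Here the experiments differed, with a target median of 0.02, −0.55 and −0.74 in experiments 0, 4 and 5. Without experiment 0, 30 fell and 1 rose, against 13.4% of all genes called in that fit.

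**Figure D4:**
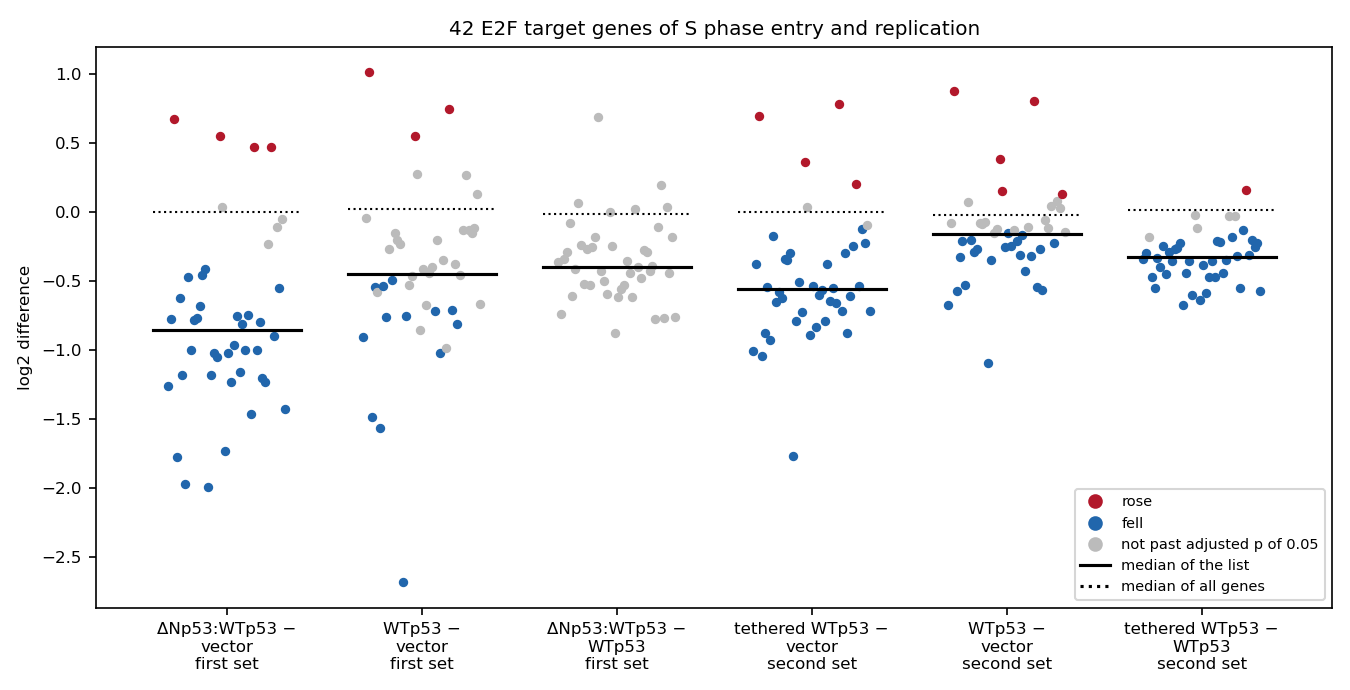
Log2 differences of the 42 measured E2F targets (dots, in alphabetical order within a column; red rose, blue fell, grey did not pass) for the 6 comparisons, with the list median (solid line) and the median of all genes (dotted line). The list median lies at −0.85, −0.45, −0.40, −0.56, −0.16 and −0.33, below that of all genes in each.

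A list of 11 genes held DP partners, E2F6, MuvB subunits, and MYBL1, MYBL2 and FOXM1, which are not MuvB subunits. Of the 11 genes 7 fell, with MYBL1, MYBL2 and FOXM1 among them, and 2 rose with ΔNp53:WTp53. With WTp53 in the first set 2 fell and 2 rose. In the second set 5 fell, MYBL2 and FOXM1 among them, and 3 rose with tethered WTp53, and 2 fell and 3 rose with WTp53. Of all genes 20.3%, 16.6%, 26.2% and 18.9% fell and 15.7%, 15.2%, 21.6% and 17.9% rose in these 4 comparisons, so the WTp53 counts lie near the background in the first set. E2F6, a repressor that lacks a pocket-binding domain, fell by 1.01, 0.88, 0.76 and 0.25 in these 4 comparisons (limma adjusted p = 4.93e-04, 0.00107, 3.93e-07 and 0.00253). The DP partner gene TFDP1 fell by 0.52 with tethered WTp53 against the vector and by 0.52 against WTp53 (limma adjusted p = 4.76e-06 and 5.12e-05). It also fell by 0.58 with ΔNp53:WTp53 against the vector (limma adjusted p = 0.0192), and it did not pass with WTp53 in either set. LIN54, the DNA-binding MuvB subunit, rose by 0.63 ± 0.08 with ΔNp53:WTp53 and by 0.35 ± 0.08 with WTp53 of the first set (limma adjusted p = 3.95e-04 and 0.00867). In the second set it rose by 0.53 with tethered WTp53 and by 0.20 with WTp53 (limma adjusted p = 1.5e-05 and 0.0166). MYBL2, the partner of MuvB at mitotic genes, was the member of this list that passed for ΔNp53:WTp53 against WTp53, where it fell by 0.86 (limma adjusted p = 0.0487), and it fell by 0.38 for tethered WTp53 against WTp53 (limma adjusted p = 2.29e-04).

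Of 15 measured genes for the RB kinases, their cyclins and their inhibitors 4 fell and 4 rose with ΔNp53:WTp53, 3 fell and 4 rose with WTp53 in the first set, 5 fell and 6 rose with tethered WTp53, and 4 fell and 8 rose with WTp53 in the second set. Of all genes 20.3%, 16.6%, 26.2% and 18.9% fell and 15.7%, 15.2%, 21.6% and 17.9% rose in the same order of comparisons. The share of the list that fell in the first set was near that of all genes. CCND3, a cyclin D gene, rose by 0.65 ± 0.09 and 0.44 ± 0.04 with WTp53 in the first and the second set. It also rose by 0.47 with ΔNp53:WTp53 and by 0.55 with tethered WTp53 (limma adjusted p = 0.00307 and 1.6e-06). SKP2, a ubiquitin ligase subunit that removes p27, fell by 0.67 with tethered WTp53 against the vector. It fell as well by 0.79 with ΔNp53:WTp53 and by 0.26 with WTp53 in the second set (limma adjusted p = 0.0158 and 0.00129), and did not pass with WTp53 in the first. CDK6, a kinase of RB proteins, rose by 0.63 ± 0.09 for ΔNp53:WTp53 against WTp53 (limma adjusted p = 0.0095). Against the vector it differed by 0.014 ± 0.09 with ΔNp53:WTp53 and fell by 0.62 with WTp53 (limma adjusted p = 0.929 and 6.46e-04). Of 10 measured chromatin partners of RB proteins 4 fell and 2 rose with ΔNp53:WTp53, and 4 fell and 1 rose with WTp53 in the first set. In the second set 6 fell and 2 rose with tethered WTp53, and 5 fell and 1 rose with WTp53. The shares of all genes are those given for the kinase list, and the counts that rose lie near them. For ΔNp53:WTp53 against WTp53 2 of the 10 rose, against 1.56% of all genes: the remodelling ATPase SMARCA2 by 0.86 ± 0.08 and the histone demethylase KDM5A by 0.88 ± 0.10 (limma adjusted p = 0.00167 and 0.00561). Both also rose for tethered WTp53 against WTp53, by 0.47 ± 0.05 and 0.60 ± 0.05 (limma adjusted p = 1.72e-04 and 3.88e-05), and 3 of the 10 fell there, against 17.5% of all genes. Among those, the histone methyltransferase SUV39H1 fell by 0.50 (limma adjusted p = 2.05e-04). Against the vector KDM5A fell with WTp53, by 0.51 in the first and 0.34 in the second set (limma adjusted p = 0.00421 and 4.03e-04). It rose by 0.37 with ΔNp53:WTp53 and by 0.25 with tethered WTp53 (limma adjusted p = 0.02 and 0.0021). SMARCA2 rose over the vector with every p53 construct. SMARCA4, the related ATPase, fell by 0.74 with ΔNp53:WTp53 and by 0.79 with WTp53 against the vector in the first set.

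The genes most like each called member were those with the highest value of the lower of 2 Pearson correlations, over the 9 arrays of each set; the arrays share the 3 groups of a set, so the values are a description. For E2F7 these were DKK2 (0.987 in the first and 0.990 in the second set) and FERMT1 (0.985 and 0.995). For RBL1 they were NSL1 (0.984 and 0.983) and OBI1 (0.982 and 0.985), and for E2F1 NIP7 (0.978 and 0.9797) and SFT2D1 (0.9751 and 0.978). For E2F8 they were KIF24 (0.972 and 0.982) and FANCG (0.972 and 0.978), for E2F5 BRIX1 (0.979 and 0.961) and G2E3 (0.961 and 0.969), and for E2F2 PRR3 (0.970 and 0.964) and the linker histone gene H1-4 (0.963 and 0.966). The values were lower for RB1, with RASSF4 (0.904 and 0.902) and ADD3 (0.888 and 0.894), for E2F4, with FGF1 (0.944 and 0.901) and NOC4L (0.922 and 0.900), and for RBL2, with NARF (0.796 and 0.817) and RAB31 (0.864 and 0.768).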

How the data were processed

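RNA of sorted NCI-H1299 cells was hybridized to 18 Affymetrix Gene arrays. The log2 intensities were deposited by the authors; per the submitters' processing notes RMA and Affymetrix Expression Console were used, without stated versions. The first set has 6 decimals and the second 2, and their medians differ, so the sets were processed apart. Precision is limited by having 3 arrays per group; background levels were not used here.

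Of 33297 probe sets 19460 have exactly 1 symbol in the platform table (1754 have several); the highest-mean probe set per symbol left 18417 genes. Each set was fitted apart with limma 3.58.1 in R 4.3.3 (9 arrays in 3 groups, leaving 6 residual degrees of freedom), two-sided, with Benjamini-Hochberg adjustment over 18417 genes and a threshold of 0.05. A fit with a spread shared by both sets is an alternative, since their spreads differ. Differences of effects used all 18 arrays with a weight per set. The exact permutation p of 3 against 3 cannot go below 0.1. The fits were tested on simulated data.

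The 10 members are all named; CDKN1A as a check; of each pathway list up to 3 called genes with the smallest p per comparison; and the 2 genes most like each called member. Members and lists were chosen with earlier results of these data known, and leaving out experiment 0 was added after seeing the data. Same-experiment residuals correlated at 0.11 to 0.57 in the first set (9 pairs), and those of different experiments at −0.50 to 0.35 (18 pairs). Arrays of experiment 0 correlated at 0.28 to 0.57 with each other and at −0.50 to −0.17 with the rest. The label was not shown to pair experiments 4 and 5. In the second set the ranges were −0.04 to 0.13 for the same experiment and −0.21 to 0.16 for different ones. The probe set of the transfected gene is not reported here.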

Additional observations from a re-analysis of the deposited data

Results flagged for a closer look

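The effect of WTp53 against the vector differed between the sets, by the test of the difference itself, for RBL1 (first minus second set −1.13 ± 0.33, limma adjusted p = 0.03) and for E2F5 (−0.50 ± 0.15, limma adjusted p = 0.0354). In each set all 3 WTp53 arrays lay below all 3 vector arrays for both genes. Without the weights for each set the difference of RBL1 did not pass (limma adjusted p = 0.0869). Groups of 3 arrays are too small for a test of single outlying arrays.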

How the results depend on the processing

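Over the 10 members 921 values were recomputed under alternatives: 856 kept their direction and side of the threshold, 33 lost their call, 21 gained one and 11 reversed, and the causes were not tested except where fewer arrays were fitted. The 11 reversals all concern differences that had not passed. In ΔNp53:WTp53 against WTp53 they came from leaving out 1 array: E2F2 ran from −0.16 to 0.17, RBL1 from −0.55 to 0.34, RBL2 from −0.12 to 0.017 and E2F8 from −0.28 to 0.035. For tethered WTp53 against the vector, E2F4 was 0.018 after quantile normalization again, RBL2 −0.01 with median centring and E2F3 0.01 without vector replicate f (−0.075 to 0.01 over the arrays left out). With the spread shared by all 18 arrays, calls of members, targets and all genes were 1, 14 and 2693 for ΔNp53:WTp53 against WTp53 (0, 0 and 449 with a spread per set), 1, 3 and 1855 for tethered WTp53 against WTp53 (6, 37 and 5970), and 2, 6 and 3603 for WTp53 against the vector in the second set (7, 27 and 6769); targets for WTp53 in the first set were 26 (16). With only the 6 arrays compared, the last count was 33 and that of all genes for ΔNp53:WTp53 against WTp53 was 96. Without any array of experiment 0, ΔNp53:WTp53 against WTp53 gave 1 member, 31 targets and 2461 genes, and WTp53 against the vector gave 32 targets and 7029 genes. Leaving out 1 array gave 0 to 2 members, 0 to 31 targets and 54 to 2292 genes for ΔNp53:WTp53 against WTp53, each highest without its replicate 0. For WTp53 against the vector in the first set it gave 7 to 13 targets and 4346 to 5437 genes. With the experiment as a replicate block, ΔNp53:WTp53 against WTp53 gave 2 targets and 806 genes, and E2F1 passed for WTp53 in the first set. In the second set, whose letters were not shown to pair the arrays, the replicate block ended the call of RBL2 for tethered WTp53 against WTp53 (limma adjusted p = 0.0514). The block changed no other member's call there. For differences of effects, fits without weights for each set gave 1 member and 1 target for WTp53 (2 and 4 with weights) and 1 member for ΔNp53:WTp53 against tethered WTp53 (0 with weights), where the replicate block gave 1 target (0). Calls also ended for E2F4 with ΔNp53:WTp53 (6 arrays or quantile normalization, limma adjusted p = 0.0551 and 0.0505), RB1 with WTp53 in the second set (median centring, 0.06) and RBL2 for tethered WTp53 against WTp53 (6 arrays, 0.0919); E2F4 gained one for tethered WTp53 against the vector with median centring (limma adjusted p = 0.0313).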
